A study of Homo sapiens with 4 samples.

Results

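The zinc finger genes of human chromosome 19 that carry the symbol ZNF and a number were measured in 2 prostate cancer lines. Members were the listed transcripts on chromosome 19 whose RefSeq accession maps to such a symbol, with 6 antisense RNAs left out, and 248 genes met that rule among the 22985 named genes. By their annotation, 237 of them are protein-coding, 6 are pseudogenes, 3 are readthrough transcripts that join neighbouring genes and 2 are non-coding RNAs (ZNF582-DT and ZNF473CR). Total RNA depleted of ribosomal RNA was sequenced in 4 libraries, 2 labelled C4-2 and 2 labelled LNCaP. C4-2 is a subline of LNCaP that was obtained from tumours in castrated mice and is labelled CRPC, that is, castration-resistant prostate cancer. LNCaP is an androgen-responsive line from a lymph node metastasis, labelled primary PC. Both lines were grown in RPMI 1640 with charcoal-stripped serum, which is depleted of steroids, and no group carried an added agent or allele per the labels. Whether replicate libraries are separate cultures is not stated in the labels. The p-values therefore rest on the spread between libraries of a line, which may be technical.

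The deposited data of each sample are stored under the name of the other line. Groups here follow the titles and cell line labels, and "libraries labelled C4-2" and "libraries labelled LNCaP" are meant throughout. Every direction would turn round if the stored names were right. The sense tags in named exons made up 67.67% and 69.43% of the library total in the libraries labelled C4-2, against 31.03% and 35.65% in those labelled LNCaP, on totals of 171507285 to 241071527 tags. The part of that gap in the results below was not tested. Luminal prostate markers, a list of 9, were all present, at 6.14 to 1153 CPM, and summed to 3404 and 3359 CPM in the libraries labelled C4-2, against 2841 and 2863 CPM in those labelled LNCaP. Of 13 markers of blood, stroma, endothelium and basal epithelium, 10 stayed under 1 CPM in all 4 libraries and COL1A2 was at 0, while COL1A1 reached 8.25 CPM in LNCaP, and the sums of the list were 7.23 and 7.26 CPM in C4-2, against 13.1 and 14.4 CPM in LNCaP, and the part of these lists in the results was not tested. KLK3, which encodes prostate-specific antigen, had 6.14 and 6.23 CPM in C4-2 and 533 and 557 CPM in LNCaP. CPM here is the sense tag count per 1000000 tags of named genes after TMM scaling. In bulk RNA, fewer expressing cells and less RNA per cell cannot be told apart.

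Most of these genes encode C2H2 zinc finger proteins. In a C2H2 finger a pair of cysteines and a pair of histidines hold a zinc ion, and fingers strung in a row each read a few bases of DNA. Many members also carry a KRAB domain, which recruits the corepressor TRIM28 and, through it, the histone methyltransferase SETDB1 and HP1 proteins. KRAB zinc finger proteins are known for silencing retrotransposons and for having multiplied by tandem duplication, which left the dense gene clusters of chromosome 19.

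The sequences that define the family are the finger repeats, and those of 3 members that differed between the lines are shown, 2 of them higher and 1 lower in C4-2. Each line is 84 bases of the coding strand, from the last exon, with the cysteine and histidine codons in capitals. The repeats come from the GRCh37 genome and GENCODE transcripts, all on the minus strand. Those of ZNF671 lie at chr19:58232512-58232595 and chr19:58232428-58232511, in exon 4 of 4, those of ZNF91 at chr19:23544896-23544979 and chr19:23544812-23544895, in exon 4 of 4, and those of ZNF83 at chr19:53117368-53117451 and chr19:53117284-53117367, in exon 2 of 2.
ZNF671 repeat 1: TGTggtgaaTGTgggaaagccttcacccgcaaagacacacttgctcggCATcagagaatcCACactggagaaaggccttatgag
ZNF671 repeat 2: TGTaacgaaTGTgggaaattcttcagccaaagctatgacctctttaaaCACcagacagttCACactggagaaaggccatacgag
ZNF91 repeat 1: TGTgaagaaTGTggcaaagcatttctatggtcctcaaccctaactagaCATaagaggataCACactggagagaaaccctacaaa
ZNF91 repeat 2: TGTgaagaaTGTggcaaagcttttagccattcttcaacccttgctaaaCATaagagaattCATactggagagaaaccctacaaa
ZNF83 repeat 1: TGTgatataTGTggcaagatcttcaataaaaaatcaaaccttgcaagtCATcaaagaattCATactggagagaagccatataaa
ZNF83 repeat 2: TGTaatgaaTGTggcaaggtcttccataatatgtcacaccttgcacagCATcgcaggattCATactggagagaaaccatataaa
All 6 repeats hold the TGT and CAT or CAC codons at the same spacing, and the bases between the second cysteine and the first histidine codon, which include those for the residues that contact DNA, differ. Across the 234 protein-coding members with a coding sequence in the annotation, the C2H2 codon pattern occurred 0 to 36 times, with a median of 12. ZNF671 had 9 such fingers, ZNF91 had 31 and ZNF83 had 14.

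Because the members descend from each other, tags could be shared between them. Of 245 members with a transcript in the annotation, 174 shared at least 1 word of 50 bases with another place in the transcriptome, at a median of 1.2% of their words, and 25 shared 10% or more. ZNF98 and ZNF492 shared 58.1% and 33.3% of their words with other places, ZNF443 and ZNF799 36.1% and 34.5%, and ZNF417 and ZNF587 36.1% and 24.6%. These shares count words found in any gene elsewhere, and sharing within a pair was not counted. The values of these genes are uncertain where the authors' counting could move tags between copies. A further 20 members overlapped another entry on the same strand.

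More members were higher than lower in the libraries labelled C4-2. Tags of the members came to 0.4802% and 0.4942% of the named sense tags in C4-2, against 0.4111% and 0.3917% in LNCaP, and their summed level was 4875 and 4989 CPM in C4-2, against 4032 and 3899 CPM in LNCaP. The C4-2 libraries lay above both LNCaP libraries in each sum. Of the 248 members, 243 passed the filter on low counts and entered edgeR's quasi-likelihood test, which was fitted across all 15975 genes that passed. At a Benjamini-Hochberg adjusted p under 0.05, 136 were higher (56.0%), 54 were lower (22.2%) and 53 were not called, where 40.2% of all genes tested were higher, 39.7% were lower and 80.0% were called in either direction. At least 2-fold differences were called higher for 43 members and lower for 6, against 11.7% of all genes higher and 18.1% lower at that size. The libraries of the lines did not overlap for 145 members that were higher and 65 that were lower, and 89.9% of all genes did not overlap. The median log2 fold change, C4-2 over LNCaP, was 0.32 over the members (quartiles -0.18 and 0.81), beside -0.011 over all genes tested. No test of the list itself was made, and members that passed the filter through the line where they are high had to differ.

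The scaling sets how many members stand on each side. With the library totals behind the deposited RPKM values in place of TMM, the median of all genes moved to 0.99 on the log2 scale, 224 members were higher and 4 lower, and 37 members called lower became higher. Relative to the median of all genes, the members' median was 0.33 higher under both scalings. A change of scaling moves all genes by nearly the same amount, so this distance is no separate check. A correction for exon length moved the members' median to 0.17, which was 0.26 above the median of all genes under that correction, with 116 members higher and 71 lower. All directions below are those under TMM scaling, that is, relative to the bulk of genes.

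**Figure D1:**
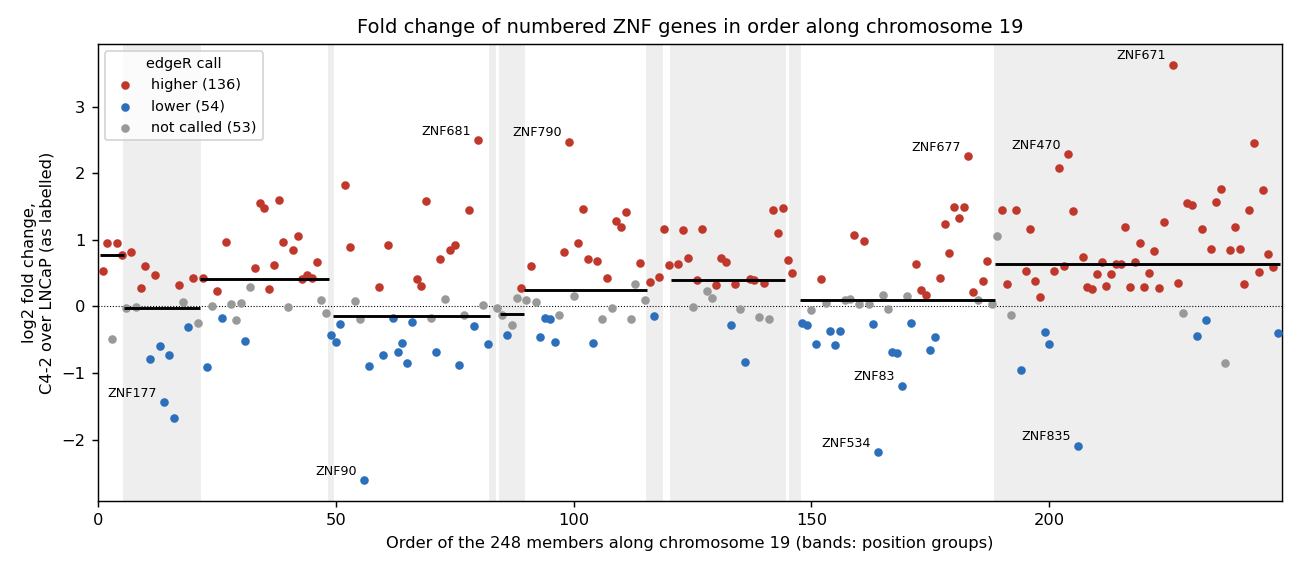
Log2 fold change (C4-2 over LNCaP, as labelled, TMM scaling) of each tested member in order along chromosome 19, coloured by the edgeR call, with grey bands for alternate position groups and black lines for the medians of groups of at least 4 members. Of the 243 points 136 are higher, 54 lower and 53 not called, the rightmost group has a median of 0.64, and with the library totals as scaling 37 of the lower points are called higher.

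The members ZNF826P, ZNF536, ZNF575, ZNF473CR and ZNF154 were listed but not tested because of low counts. ZNF154, whose promoter is known to be methylated in many carcinomas, had 5 and 4 tags in the libraries labelled C4-2, against 2 and 4 in those labelled LNCaP. ZNF536, a gene known from neurons, had 2 and 0 tags in C4-2, against 5 and 17 in LNCaP. No member was at 0 in both libraries of one line with 20 or more tags in each library of the other.

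Members were grouped by position, with a new group where neighbouring members lay more than 1 Mb apart, which gave 9 groups of at least 4 members. The group nearest the end of the long arm, ZNF628 to ZNF446 (chr19:55987699-58992597, hg19), is also the largest, with 60 members. In it 48 of 59 tested members were higher and 7 lower, with a median of 0.64, and 18 were at least 2-fold higher. Of all genes tested, 40.2% were higher, 39.7% lower and 11.7% at least 2-fold higher. The group's summed level was 1314 and 1327 CPM in the libraries labelled C4-2, against 838 and 822 CPM in those labelled LNCaP, without overlap.

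Within that group, 20 neighbouring tested members in a row were higher, ZNF264 to ZNF776 (chr19:57702868-58269527), with log2 fold changes of 0.26 to 3.63. A second run of 10, ZNF329 to ZNF324 (chr19:58637695-58984945), ranged over 0.33 to 2.46, and a run of 5, ZNF583 to ZNF71 (chr19:56915694-57135544), over 0.53 to 2.29. The 7 lower members of the group were ZNF580, ZNF582, its divergent transcript ZNF582-DT, ZNF835, ZNF587, ZNF417 and ZNF446, named after their values were seen, of which ZNF446 turned to 0.13 when tags of both strands were counted. ZNF587 had 35.6 and 37.7 CPM in C4-2 and 52.0 and 47.6 CPM in LNCaP, and ZNF417 had 23.5 and 25.02 CPM in C4-2 and 27.8 and 28.0 CPM in LNCaP. Both genes shared part of their words with other places, as described above, and their neighbours ZNF587B (log2 fold change 1.53) and ZNF814 (1.16) were higher.

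Of the 41 members in the ZNF175 to ZNF331 group (chr19:52074531-54083523), 16 were higher and 14 lower, near the 40.2% and 39.7% of all genes tested. The group had a median of 0.09. Towards its end it held a run of 8 higher members, ZNF816 to ZNF845 (chr19:53452632-53858122), with log2 fold changes of 0.22 to 2.26, whereas ZNF701, ZNF137P and ZNF83 (chr19:53073526-53141644) were lower, at -1.19 to -0.69. ZNF321P and the readthrough ZNF816-ZNF321P (chr19:53430388-53466164) were lower too, at -0.65 to -0.45. Their stretch overlaps the start of the run of 8, so ZNF816 and the readthrough may share tags. ZNF331, an imprinted gene at the end of the group, had 22.4 and 22.7 CPM in C4-2, against 22.99 and 21.01 CPM in LNCaP, and the test did not separate the lines (adjusted p = 0.579).

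On the short arm, 12 of 32 tested members of the ZNF101 to ZNF254 group (chr19:19779663-24312654) were higher and 14 lower, near the 40.2% and 39.7% of all genes tested. The group had a median of -0.15. It contained the longest run of lower members, the 5 genes ZNF430 to ZNF493 (chr19:21203426-21610296), at -0.84 to -0.18. ZNF714 in that run had 57.1 and 56.6 CPM in the libraries labelled C4-2, against 96.6 and 86.6 CPM in those labelled LNCaP. The same group held ZNF91 (1.45), ZNF43 (1.58), ZNF506 (1.82) and ZNF681 (2.49), all higher, so that lower and strongly higher members lay side by side. With the library totals as scaling the median of the group was 0.86, and with a correction for GC content and length it was 0.13.

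Beside each group count of this paragraph stand the 40.2% of all genes tested that were higher and the 39.7% that were lower. The ZNF653 to ZNF791 group (chr19:11594242-12740676) had 16 of 27 members higher and 3 lower, with a median of 0.41. Its higher members came in runs of 7, ZNF433 to ZNF136, and 6, ZNF563 to ZNF564. The run of 7 counts the readthrough ZNF625-ZNF20 beside ZNF20 and ZNF625, which it overlaps on the same strand, so these 3 may share tags. ZNF625 in the run of 7 had 14.8 and 15.2 CPM in C4-2, against 5.08 and 4.80 CPM in LNCaP. The ZNF575 to ZNF296 group (chr19:44037340-45579688) had 15 of 23 tested members higher and 2 lower, ZNF224 and ZNF226, with a median of 0.39, and ZNF229 there had 21.3 and 22.7 CPM in C4-2, against 7.71 and 8.36 CPM in LNCaP. In the ZNF565 to ZNF573 group (chr19:36673187-38270230) 12 of 26 were higher and 5 lower, with a median of 0.24. Its neighbours ZNF569, ZNF570 and ZNF793 were higher, at 1.20 to 1.41, and 4 neighbours from ZNF260 to ZNF461 were lower, at -0.53 to -0.18.

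The smaller groups and single members follow, beside the same 40.2% higher and 39.7% lower among all genes tested. Of the 5 members from ZNF554 to ZNF77 (chr19:2819872-2944969), 4 were higher and 0 lower, with a median of 0.77. ZNF57 there had 25.1 and 23.8 CPM in C4-2 and 12.3 and 12.9 CPM in LNCaP. In the ZNF557 to ZNF846 group (chr19:7069471-9879410) 6 of 16 were higher and 6 lower, near the 40.2% and 39.7% of all genes tested. The group's median of -0.02 turned positive under 4 other settings given in the closing section. Among the 5 members from ZNF302 to ZNF792 (chr19:35168567-35454953) 1 was higher and 1 lower, with a median of -0.12 that was 0.88 with the library totals. Of the members in groups of under 4, ZNF333 was lower (-0.42), ZNF507 was not called (-0.02), and ZNF114 (0.69), ZNF473 (0.51), ZNF574 (1.16), ZNF526 (0.62), ZNF546 (0.37) and ZNF780A (0.44) were higher beside a lower ZNF780B (-0.14).

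**Figure D2:**
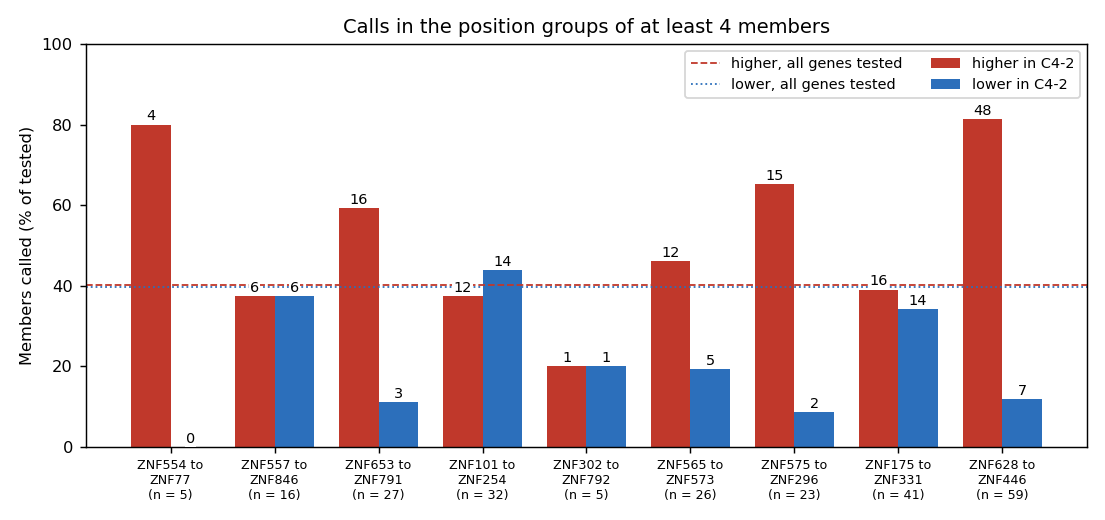
Share of tested members called higher (red, left bar) and lower (blue, right bar) in C4-2 in the 9 position groups of at least 4 members, in order along the chromosome, with the number of members above each bar. The dashed and dotted lines mark the 40.2% and 39.7% of all genes that were called higher and lower; the last group has 48 higher and 7 lower members, and lower calls depend on TMM scaling, since 4 lower members in all were left with the library totals.

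The directions of neighbouring members are given as a description. Of 228 pairs of tested members next to each other in a group, 141 had both genes called, and 101 of these went the same way and 40 opposite ways. With 136 members higher and 54 lower among those called, pairs that agree would be the more common kind from the shares of each direction alone. Across the 228 pairs the fold changes of neighbours had a Spearman rho of 0.24 and a Pearson r of 0.24. The pairs share members, libraries and, for some, sequence, so no p is given.

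The 10 largest increases among called members with an average of at least 1 CPM began with ZNF671 (chr19:58231119-58238995), a KRAB gene whose promoter is reported methylated in several carcinomas. It had 5.53 and 5.89 CPM in the libraries labelled C4-2, against 0.499 and 0.424 CPM in those labelled LNCaP. Its log2 fold change was 3.63 (SE 0.15, adjusted p = 2.46e-07), that is, 12.4-fold, on 888 and 695 tags in C4-2 and 30 tags in each LNCaP library. ZNF470 (chr19:57078890-57094262) had 35.0 and 35.0 CPM in C4-2, against 7.51 and 6.88 CPM in LNCaP (log2 fold change 2.29, SE 0.06, adjusted p = 4.37e-08). ZNF667 (chr19:56950693-56988770) had 23.99 and 24.5 CPM in C4-2, against 5.81 and 5.69 CPM in LNCaP (2.08, SE 0.07). For each of these genes both C4-2 libraries lay above both LNCaP libraries, and all of them stand in the group at the end of the long arm.

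ZNF606 (chr19:58488441-58514714), ZNF837 and ZNF132 belong to the same group. ZNF606 had 25.6 and 27.4 CPM in C4-2, against 7.87 and 7.70 CPM in LNCaP (log2 fold change 1.77, SE 0.07). ZNF837 (chr19:58878990-58892389) had 3.78 and 3.83 CPM in C4-2, against 0.416 and 0.932 CPM in LNCaP (2.46, SE 0.26), so its LNCaP libraries differed from each other by more than 2-fold. ZNF132 (chr19:58944181-58951589), a gene known for promoter methylation in prostate cancer, had 3.68 and 3.32 CPM in C4-2, against 1.248 and 0.848 CPM in LNCaP (1.76, SE 0.19), and its tags on the opposite strand, 783 and 605 in C4-2 and 140 and 169 in LNCaP, outnumbered its sense tags. For all 3 genes the lines did not overlap.

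The other large increases lay elsewhere on the chromosome. ZNF681 (chr19:23921997-23941693) had 16.03 and 17.37 CPM in C4-2, against 3.05 and 2.88 CPM in LNCaP (log2 fold change 2.49, SE 0.09). ZNF790 (chr19:37309224-37328929) had 9.21 and 10.6 CPM in C4-2, against 1.70 and 1.85 CPM in LNCaP (2.47, SE 0.12). These are KRAB genes with 11 and 12 finger patterns. ZNF677 (chr19:53738638-53758111), a gene reported silenced by promoter methylation in lung cancer, had 7.36 and 7.62 CPM in C4-2, against 1.45 and 1.67 CPM in LNCaP (2.26, SE 0.12). ZNF506 (chr19:19903520-19932560) had 17.6 and 18.7 CPM in C4-2, against 5.99 and 4.34 CPM in LNCaP (1.82, SE 0.13). Each was above its LNCaP values in both C4-2 libraries, and adjusted p-values were 3.99e-06 or smaller.

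**Figure D3:**
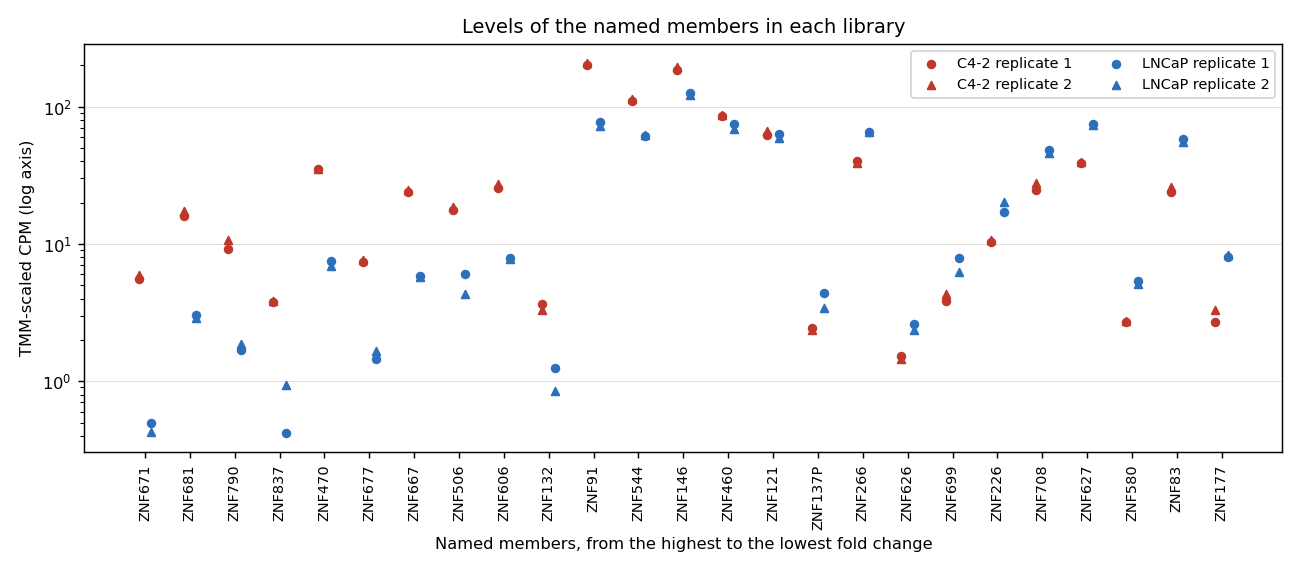
TMM-scaled CPM (log axis) of the 25 named members in each library, ordered from the highest to the lowest fold change, with C4-2 libraries in red on the left of each pair and LNCaP libraries in blue on the right (circles replicate 1, triangles replicate 2). ZNF671 at the left sits near 5.7 CPM in C4-2 and 0.46 CPM in LNCaP, ZNF121 has overlapping lines, and of the 10 lower members at the right 8 turn positive with the library totals as scaling.

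The 10 largest decreases in the same range of levels were smaller in size. With the library totals as scaling, 8 of them turned positive, the exceptions being ZNF177 and ZNF83. Of those 8, only ZNF266 was then called higher (0.28, adjusted p = 0.031), and the rest were not called. ZNF177 was still called lower with the library totals (-0.43, adjusted p = 0.0066). ZNF83 (chr19:53115618-53141644), whose repeats are shown above, had 23.7 and 25.7 CPM in the libraries labelled C4-2, against 58.3 and 54.8 CPM in those labelled LNCaP (log2 fold change -1.19, SE 0.06, adjusted p = 6.91e-07). With the library totals its fold change was -0.18 (adjusted p = 0.152), and an entry without a symbol overlaps it. ZNF177 (chr19:9486992-9493293) had 2.71 and 3.31 CPM in C4-2, against 8.02 and 8.24 CPM in LNCaP (-1.44, SE 0.12), and tags in its exons are also counted for the readthrough ZNF559-ZNF177. That readthrough was lower too (-0.59), whereas ZNF559 itself was higher (0.47), at 37.8 and 39.3 CPM in C4-2 and 27.6 and 28.1 CPM in LNCaP.

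ZNF627 (chr19:11708235-11729974) had 39.0 and 39.6 CPM in C4-2, against 74.3 and 73.7 CPM in LNCaP (log2 fold change -0.91, SE 0.05). ZNF266 (chr19:9523102-9546254) had 40.0 and 38.8 CPM in C4-2, against 65.6 and 64.9 CPM in LNCaP (-0.73, SE 0.05). ZNF708 (chr19:21473963-21512212) had 24.6 and 27.7 CPM in C4-2, against 48.1 and 45.7 CPM in LNCaP (-0.84, SE 0.07). For each of these genes the lines did not overlap. ZNF226 (chr19:44669249-44681838) had 10.3 and 10.6 CPM in C4-2, against 17.1 and 20.3 CPM in LNCaP (-0.84, SE 0.09), and ZNF699 (chr19:9405986-9415795) had 3.87 and 4.31 CPM in C4-2, against 7.84 and 6.27 CPM in LNCaP (-0.79, SE 0.13). ZNF580 (chr19:56153418-56154836), a short protein with 3 finger patterns, had 2.69 and 2.73 CPM in C4-2, against 5.38 and 5.11 CPM in LNCaP (-0.95, SE 0.11). The remaining lower genes were ZNF626 (chr19:20802745-20844402, -0.73) and the pseudogene ZNF137P (chr19:53099937-53103405, -0.70), at 1.44 to 2.46 CPM in C4-2 and 2.35 to 4.38 CPM in LNCaP.

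Members below that range of levels gave larger decreases on few tags, and are named after their values were seen. ZNF90 (chr19:20188803-20231977) had 52 and 42 tags in the libraries labelled C4-2, against 122 and 149 in those labelled LNCaP, or 0.324 and 0.356 CPM against 2.03 and 2.10 CPM (log2 fold change -2.61, SE 0.19). ZNF534 had 21 and 15 tags in C4-2, against 45 and 32 in LNCaP (-2.19, SE 0.37), ZNF835 had 12 and 15 tags in C4-2, against 29 and 26 in LNCaP (-2.10, SE 0.40), and ZNF560 had 14 and 13 tags in C4-2, against 20 and 21 in LNCaP (-1.68, SE 0.38). The C4-2 libraries are the more deeply counted ones, so these genes had fewer tags there in spite of the depth.

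Levels were compared between members as CPM per kb of exons. Of 245 members with an exon length, 36 averaged under 1, 184 between 1 and 10 and 25 at least 10 CPM per kb, and the median member had 4.29 and 4.33 CPM per kb in the libraries labelled C4-2, against 3.43 and 3.30 in those labelled LNCaP. ZNF146, a protein made almost wholly of fingers and without a KRAB domain, was at 48.98 ± 1.30 CPM per kb in C4-2, against 32.1 ± 0.637 in LNCaP (SD, n = 2 each). Its counts were 185 and 192 CPM in C4-2, against 126 and 122 CPM in LNCaP (log2 fold change 0.61, SE 0.04, adjusted p = 4.63e-06). ZNF121 was at 36.9 ± 1.74 CPM per kb in C4-2 and 35.2 ± 1.85 in LNCaP (SD, n = 2 each), and its difference of 0.06 on the log2 scale (SE 0.06) was within the spread (adjusted p = 0.314). It was called higher at 0.21 with the correction for GC content and length (adjusted p = 0.00194) and at 1.07 with the library totals. ZNF544 (0.87) and ZNF460 (0.26) were higher, at 31.8 and 22.3 CPM per kb in C4-2 and 17.5 and 18.6 CPM per kb in LNCaP, and ZNF460 lost its call with the length correction (0.10, adjusted p = 0.0789).

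**Figure D4:**
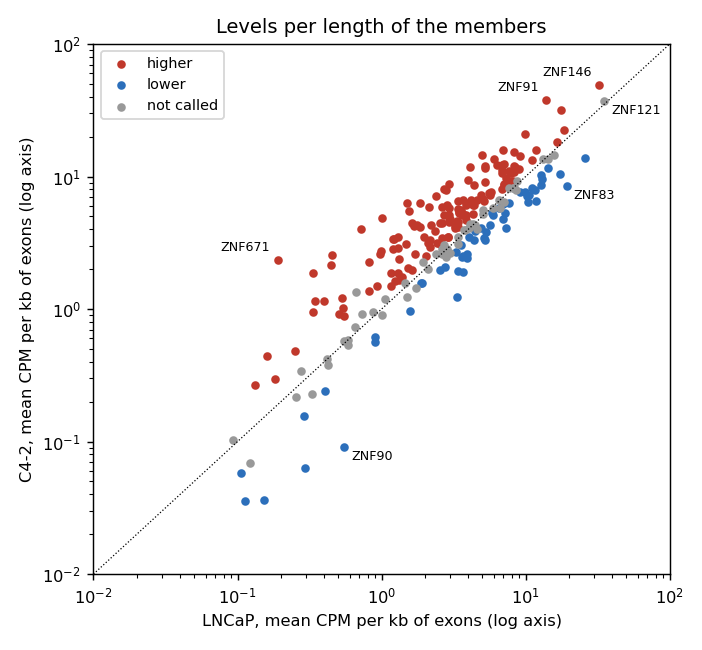
Mean level of each member in CPM per kb of exons, C4-2 on the vertical and LNCaP on the horizontal log axis, coloured by the edgeR call, with equal levels on the dotted diagonal. ZNF146, ZNF121 and ZNF91 lie at the top right, ZNF671 far above the diagonal, and ZNF83 and ZNF90 below it, where ZNF90 rests on 52 and 42 tags in C4-2.

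ZNF91, whose finger repeats are shown above, is known for repressing SVA retrotransposons in primate cells. It had 199 and 209 CPM in the libraries labelled C4-2, against 76.5 and 72.4 CPM in those labelled LNCaP. Its log2 fold change was 1.45 (SE 0.05, adjusted p = 9.53e-08), and the lines stood far apart. ZNF93, known for repressing L1 elements, had 10.5 and 11.5 CPM in C4-2, against 10.4 and 10.5 CPM in LNCaP, and was not called (adjusted p = 0.403). ZNF43, a close relative in the same group, had 45.07 and 48.03 CPM in C4-2, against 15.9 and 15.3 CPM in LNCaP (1.58, SE 0.06). The retrotransposons themselves were not analysed here.

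Other members with a described role were chosen after their values were seen. ZNF274, which binds the 3' ends of zinc finger genes and recruits SETDB1 there, had 45.7 and 44.5 CPM in the libraries labelled C4-2, against 18.6 and 20.6 CPM in those labelled LNCaP (log2 fold change 1.20, SE 0.06). ZNF473, a partner of the U7 snRNP in histone mRNA processing, had 24.02 and 24.65 CPM in C4-2, against 17.3 and 17.0 CPM in LNCaP (0.51, SE 0.06). ZNF568, whose mouse counterpart represses a placental promoter of Igf2, had 23.7 and 24.5 CPM in C4-2, against 8.91 and 8.63 CPM in LNCaP (1.46, SE 0.06). All 3 genes were called higher without overlap between the lines. ZNF350, a BRCA1 partner, was higher by 0.41 (SE 0.07), at 11.93 and 12.02 CPM in C4-2 and 9.35 and 8.70 CPM in LNCaP. ZNF224, a repressor of the aldolase A gene, was lower (-0.28, SE 0.08), as was ZNF675, an inhibitor of TRAF6 signalling (-0.29, SE 0.06), and both differences were smaller than the shift between the scalings.

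Some features of the proteins were compared by count alone. Over all members tested, 56.0% were higher and 22.2% lower, and over all genes tested 40.2% and 39.7%. A codon pattern of the KRAB core was found in 170 protein-coding members, of which 91 of 169 tested were higher (53.8%) and 37 lower (21.9%), with a median of 0.28. In the 64 members without the pattern, 40 of 62 were higher (64.5%) and 11 lower (17.7%), with a median of 0.47, and the difference between the classes was not tested. The pattern is strict, so its absence says only that those codons are not in the transcript, and in the ZNF575 to ZNF296 group it was found in 2 of 24 members. By number of fingers, 8 of 11 tested members with 0 to 5 were higher and 2 lower, 37 of 68 with 6 to 10 were higher and 14 lower, 60 of 99 with 11 to 15 were higher and 21 lower, and 26 of 53 with 16 or more were higher and 11 lower. The medians in these 4 classes lay between 0.31 and 0.42. Among the 25 members that shared at least 10% of their 50-base words, 14 were higher and 5 lower (median 0.39). In 192 tested protein-coding members with no same-strand overlap and less sharing, 106 were higher and 40 lower (median 0.33).

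Promoters are shown for members with large differences in either direction, because methylation of CG sites at such promoters is a known way of silencing this family, although methylation was not measured here. Each is the RefSeq window from 250 bases before to 50 bases after the gene start, on the coding strand, in build GRCh38.p14, with every CG in capitals. ZNF671 lies at chr19:57727575-57727874 (minus), ZNF667 at chr19:56477296-56477595 (minus), ZNF83 at chr19:52690447-52690746 (minus) and ZNF627 at chr19:11597233-11597532 (plus).
ZNF671 promoter: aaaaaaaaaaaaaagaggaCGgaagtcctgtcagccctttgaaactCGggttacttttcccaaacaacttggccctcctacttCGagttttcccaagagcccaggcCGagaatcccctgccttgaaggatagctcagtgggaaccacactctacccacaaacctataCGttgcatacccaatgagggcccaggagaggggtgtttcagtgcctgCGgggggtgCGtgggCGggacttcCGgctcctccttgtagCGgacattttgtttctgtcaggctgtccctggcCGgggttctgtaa
ZNF667 promoter: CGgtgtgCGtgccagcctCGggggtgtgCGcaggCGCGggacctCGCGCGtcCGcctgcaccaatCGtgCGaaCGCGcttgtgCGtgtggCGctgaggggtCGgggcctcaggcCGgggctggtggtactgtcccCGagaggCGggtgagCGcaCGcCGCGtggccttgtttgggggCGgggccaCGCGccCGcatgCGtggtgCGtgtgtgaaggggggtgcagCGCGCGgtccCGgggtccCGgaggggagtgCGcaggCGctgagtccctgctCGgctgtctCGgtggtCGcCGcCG
ZNF83 promoter: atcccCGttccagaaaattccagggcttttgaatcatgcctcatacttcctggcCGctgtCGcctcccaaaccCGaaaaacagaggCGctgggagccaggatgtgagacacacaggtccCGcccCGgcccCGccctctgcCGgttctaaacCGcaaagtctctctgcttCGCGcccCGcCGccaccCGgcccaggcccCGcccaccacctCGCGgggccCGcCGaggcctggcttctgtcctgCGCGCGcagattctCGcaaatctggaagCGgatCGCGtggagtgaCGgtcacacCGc
ZNF627 promoter: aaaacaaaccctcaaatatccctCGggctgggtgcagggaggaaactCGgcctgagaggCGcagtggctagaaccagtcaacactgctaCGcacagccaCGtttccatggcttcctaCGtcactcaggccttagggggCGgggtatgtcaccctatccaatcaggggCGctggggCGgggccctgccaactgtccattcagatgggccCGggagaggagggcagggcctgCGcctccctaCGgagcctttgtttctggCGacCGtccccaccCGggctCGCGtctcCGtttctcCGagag
The motif CG, the same on both strands, occurred 11 times in the window of ZNF671, 42 times in that of ZNF667, 29 times in that of ZNF83 and 19 times in that of ZNF627. At least as many were found in 54.7%, 5.8%, 24.2% and 42.9% of all promoter windows in that order, and any CG in 96.0%. Over the 213 members with a window the median was 20 (range 2 to 42), beside 14 over 35116 windows of all genes. Over all members tested, 56.0% were higher and 22.2% lower, and over all genes tested 40.2% and 39.7%. Of the 52 tested members with 14 or fewer CG, 25 were higher and 17 lower (median fold change 0.13, log2). Of the 55 with 15 to 20, 32 were higher and 12 lower (0.405), and of the 52 with 21 to 26, 30 were higher and 8 lower (0.313). Of the 50 with 27 or more, 30 were higher and 11 lower (0.46). The medians thus did not rise steadily with the number of CG.

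Antisense RNAs next to members were not members but were counted in the same way. ZNF667-AS1, which starts beside ZNF667 on the other strand (chr19:56989243-57006805), had 39.8 and 38.4 CPM in the libraries labelled C4-2, against 13.05 and 14.01 CPM in those labelled LNCaP (log2 fold change 1.53, SE 0.06). Both it and ZNF667 were higher. ZNF790-AS1 had 3.12 and 3.48 CPM in C4-2, against 2.08 and 2.29 CPM in LNCaP (0.59, SE 0.13), a smaller difference than that of ZNF790, although the difference between them was not tested. ZNF225-AS1 was higher (0.997, SE 0.22), ZNF566-AS1 was lower (-0.28, SE 0.11), ZNF606-AS1 was not called and ZNF571-AS1 was not tested. Tags on the strand opposite to the members came to 1.66% in both C4-2 libraries, against 2.43% and 2.36% in the LNCaP libraries.

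Partners through which KRAB proteins silence DNA were counted as a list of 28 genes. MBD3 was not analysed here. Of the other 27, 18 were higher (66.7%), 6 were lower (22.2%) and 3 were not called, where 40.2% of all genes tested were higher, 39.7% lower and 80.0% called in either direction. The median log2 fold change of the list was 0.51. TRIM28, which binds the KRAB domain, had 451 ± 21.01 CPM in C4-2, against 243 ± 22.4 CPM in LNCaP (SD, n = 2 each; log2 fold change 0.89, SE 0.07), and its log2 fold change was 0.31 with the correction for GC content and length. UHRF1, a cofactor of maintenance DNA methylation, was at 114 ± 4.38 CPM in C4-2 and 24.8 ± 0.630 CPM in LNCaP (2.20, SE 0.05). HDAC2 (1.10), MTA2 (0.91) and CHD3 (0.73), subunits of the NuRD deacetylase complex, were higher as well, with MTA2 at 0.53 and CHD3 at 0.41 under the correction for GC content and length. Of the same complex, GATAD2B (-0.63) and RBBP4 (-0.12) were lower, and HDAC1 (0.01) and MTA1 (0.01) were not called.

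SETDB1, the histone methyltransferase of the pathway, had 60.3 ± 1.51 CPM in C4-2 and 54.3 ± 0.442 CPM in LNCaP (SD, n = 2 each; log2 fold change 0.15, SE 0.05, adjusted p = 0.0174). The call was lost with a filter of at least 50 tags in 2 libraries (adjusted p = 0.176). It was also lost with the correction for length (0.01, adjusted p = 0.89) and when transcripts were summed (adjusted p = 0.0543). Without C4-2 replicate 1 the log2 fold change was 0.13, and without C4-2 replicate 2 it was 0.18. With the correction for GC content and length SETDB1 was called lower instead (-0.09, adjusted p = 0.0367). The HP1 genes CBX1 (0.77) and CBX5 (0.54) were higher and CBX3 (-0.62) lower. Of the HUSH complex, which spreads and keeps silencing, MPHOSPH8 was higher (0.42), and TASOR (-0.44) and PPHLN1 (-0.28) were lower. SUMO2 was lower too (-0.56), and with the library totals as scaling none of the 27 was lower.

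Numbered ZNF genes on other chromosomes and the other genes of chromosome 19 were set beside the members. Of 247 tested ZNF genes elsewhere, 102 were higher (41.3%) and 84 lower (34.0%), with a median of 0.07. Of 882 other tested genes of chromosome 19, 442 were higher (50.1%) and 243 lower, with a median of 0.27. The members' median of 0.32 was close to the 0.27 of the other genes of chromosome 19 and further from the 0.07 of the ZNF genes elsewhere. No test of these differences was made. The exons of the members had a median GC content of 42.3%, beside 48.7% over all genes tested, and a median exon length of 3047 bases, beside 2794. The part of these properties in the members' shift was not tested beyond the corrections for length and GC content, under which the members' median stayed 0.26 and 0.36 above that of all genes.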

How the data were processed

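Total RNA depleted of ribosomal RNA was sequenced in 2 libraries per line. Per the submitters' processing notes, TopHat2 2.0.6, Bowtie and the build hg19 (GRCh37) were used. For each of 41351 RefSeq entries and either strand, the authors deposited the tag count and the RPKM, and the counter is not given in the sources used here. Sense counts were used, the RPKM values only to recover library totals, exon lengths and the order of levels. Accessions were named through a RefSeq table (GRCh38.p14, names only), 38974 of 40304, and the entries without a symbol, 2.06% to 2.15% of sense tags, were left out. Each gene was represented by its transcript of largest mean tag share. The named sense tags were 163126630 and 119080520 in C4-2 and 58925680 and 70459588 in LNCaP. Counts were tested with edgeR 4.0.16 in R 4.3.3 (quasi-likelihood, filterByExpr, TMM, line as the only term, Benjamini-Hochberg adjusted p under 0.05 over 15975 genes), after a check on simulated counts. DESeq2 1.42.0, other scalings, filters, transcripts, strands, left-out libraries, a replicate block and corrections for length and for GC content with length were tried, the last chosen after seeing the data. Replicates differed by more than sampling noise (chi-square per degree of freedom 12.7 in C4-2 and 25.6 in LNCaP). Members and lists were chosen with earlier results of these data known. The text names the 10 called members that were most raised and the 10 most lowered at a log2 average CPM of 0 or more, the 5 with the highest RPKM, any member present in 1 line alone, and of the corepressor genes the 4 with the smallest adjusted p, TRIM28 and SETDB1; other members were chosen after their values were seen. Coordinates of the members (hg19) are printed counted from 1, after 1 base was added to the deposited starts. Fingers and the KRAB core were counted on GENCODE coding sequences (GRCh37) as codon patterns, a C2H2 finger being 2 cysteine codons, 12 codons apart from 2 histidine codons, and the KRAB core being codons for Asp-Val, Phe and Glu-Trp at fixed spacing. Protein sequences were not used here, and some markers are not reported here.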

Additional observations from a re-analysis of the deposited data

Results flagged for a closer look

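For 3 members, both C4-2 libraries held at least 50 tags on the strand opposite to the gene, in a number at least 0.5 of the sense tags, and at a higher scaled level than in both LNCaP libraries. The main test uses sense tags, so these tags did not enter it. ZNF497 had 970 and 712 opposite-strand tags in the libraries labelled C4-2, against 228 and 255 in those labelled LNCaP, beside 1301 and 941 sense tags in C4-2 and 144 and 246 in LNCaP, and A1BG-AS1 overlaps it on that strand. ZNF132 had 783 and 605 opposite-strand tags in C4-2, against 140 and 169 in LNCaP, beside 591 and 392 sense tags in C4-2 and 75 and 60 in LNCaP. ZNF446 had 576 and 376 opposite-strand tags in C4-2, against 37 and 63 in LNCaP, beside 1140 and 701 sense tags in C4-2 and 518 and 606 in LNCaP. The library kit is not stated to keep strand, but over all entries only 1.18% to 1.80% of tags lay on the opposite strand. Most tags therefore kept their strand. Where the opposite-strand tags of these 3 members came from was not tested.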

How the results depend on the processing

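Under DESeq2 size factors in edgeR, the DESeq2 test, both filters, summed transcripts, both strands and the correction for GC content with length, between 126 and 141 members were higher and 47 to 60 lower. Leaving out 1 library gave 122 to 140 higher, 40 to 59 lower and medians of 0.28 to 0.35. With the library totals behind RPKM, 224 were higher and 4 lower. The median was 1.33, which was 0.33 above that of all genes, a distance that scaling alone can hardly change. Of the called named members, 15 of 24 kept their call. The count of all genes higher was 11572 and of all genes lower 1756. The members' median was 0.26 with the stricter filter, 0.17 with the length correction and 0.26 with that for GC content and length. Signs turned with the library totals for the medians of the ZNF557 (0.98), ZNF101 (0.86) and ZNF302 (0.88) groups and for ZNF699 (0.23), ZNF266 (0.28), ZNF627 (0.09), ZNF626 (0.27), ZNF708 (0.17), ZNF226 (0.16), ZNF137P (0.31), ZNF580 (0.05) and ZNF446 (0.61). The ZNF557 group's median was 0.02 without a filter, -0.05 without C4-2 replicate 1, 0.01 without C4-2 replicate 2 and 0.02 with both strands, ZNF446 was 0.13 with both strands, the ZNF175 group's median was -0.09 with the length correction, the ZNF101 group's was 0.13 and SETDB1 was -0.09 with GC content and length. The cause was not tested. ZNF628, with 7.74 and 2.62 CPM in C4-2 and 2.81 and 2.27 CPM in LNCaP, was not called (1.05, adjusted p = 0.059), and was 0.06 without C4-2 replicate 1 and 1.62 without C4-2 replicate 2; it was called with DESeq2 size factors (adjusted p = 0.0484), without a filter (adjusted p = 0.00156), with the library totals and without any 1 library other than C4-2 replicate 1. A position break at 0.5 Mb split the last group, with 12 of 18 members higher in ZNF628 to ZNF835 and 36 of 41 in ZNF264 to ZNF446.

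With the replicate number as a block, 134 members were higher and 49 lower, and 12400 was the count of all genes called. Under the block ZNF628 was called (0.88, adjusted p = 0.0014) and SETDB1 was not (0.15, adjusted p = 0.0547). Same-numbered libraries did not deviate together across the genes as a whole (correlation -0.08 over 13061 genes). The labels do not say what the replicate numbers stand for, and this correlation cannot show that they share no batch. Depth limits members under 1 CPM, such as ZNF835 with 12 to 29 tags.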

Other observations

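Replicates of a line differed little for most members. Over the 227 members at a log2 average CPM of 0 or more, the median absolute log2 ratio between replicates was 0.058 in C4-2 and 0.090 in LNCaP. A ratio over 0.5 was seen for ZNF628 in C4-2 and for ZNF570, ZNF221, ZNF865, ZNF497, ZNF837 and ZNF132 in LNCaP, with the largest in LNCaP for ZNF837 (1.15).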
